A study of Mus musculus with 9 samples.

Results

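The lincRNA-p21 hairpin arm was set directly against the Hnrnpk hairpin arm in mouse embryonic fibroblasts (MEFs) on their way to induced pluripotency, to find the genes at which the effects of these knockdowns part. The comparison used 6 of the 9 libraries of the series, 3 per arm, paired by day of reprogramming (days 6, 9 and 12). It covered 12541 of the 12550 genes in the deposited table, those whose 9 values averaged 20 or more. The 3 luciferase hairpin libraries entered as the level from which each arm could have moved, and they added to the estimate of the spread.

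All 3 groups were MEFs of the C57Bl/6cJ strain that received Oct4, Sox2, Klf4 and c-Myc on plasmids and were grown in mouse embryonic stem cell medium with leukemia inhibitory factor, so the controls carried the factors too. The lincRNA-p21 group and the Hnrnpk group each carried a pretroSuper construct with a hairpin against that RNA, and the control group carried the same kind of construct with a hairpin against luciferase, an enzyme that mouse cells do not make. The labels call the cells partly reprogrammed, give 1 library per group and day, and call each library merged replicates. With 1 hairpin arm per target, loss of the target and any other action of that construct cannot be told apart. The p-values measure how far a difference between arms varied from day to day, not the variation between cultures of the same arm and day, which was not measurable.

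The long noncoding RNA lincRNA-p21, encoded by Trp53cor1 beside the cell cycle inhibitor gene Cdkn1a, is induced by p53. In mouse fibroblasts it is known to bind hnRNP K, a poly(C)-binding protein that acts in transcription, splicing, mRNA stability and translation and that has many other partners. A fibroblast that is reprogrammed first shuts down mesenchymal genes and takes on an epithelial state, with claudins, E-cadherin and simple keratins, before the pluripotency network comes on. Cultures at this stage hold a mixture of cells.

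The deposited values are a signal scaled by the authors to nearly equal totals in every library (they differ by 0.0252%), so read depth is unknown. All 9 markers of MEFs examined were above 0 in every library. Thy1, a fibroblast surface protein, lay between 1334 and 2098 in the lincRNA-p21 arm, between 1278 and 2149 in the Hnrnpk arm and between 1172 and 1838 in the luciferase arm. Col3a1 differed from this, at 21757.5 to 67808.5 in the lincRNA-p21 arm, 14760 to 18665 in the Hnrnpk arm and 19438.5 to 30018 in the luciferase arm. The ranges of the other markers overlapped between the knockdown arms. Of other cell types that such cultures could hold, 3 of 19 macrophage, 6 of 15 endothelial and 4 of 12 adipocyte markers were in the table. The 3 macrophage genes summed to between 3250 and 3693.5 in the lincRNA-p21 arm, between 3556.5 and 5173 in the Hnrnpk arm and between 3276 and 3829.5 in the luciferase arm, and 0 of the genes of these lists were called. Cd68, a lysosomal protein of macrophages, did not pass the test but was below its Hnrnpk value on each day, at 171, 180 and 419.5 in the lincRNA-p21 arm, 780, 314.5 and 556 in the Hnrnpk arm, with 120.5, 238.5 and 380 under luciferase (difference -1.10, limma adjusted p = 0.160). The other macrophage genes were not lower on every day. Itgam had 2025, 1889 and 2091.5 in the lincRNA-p21 arm and 1574, 2578 and 3770.5 in the Hnrnpk arm (difference -0.31, limma adjusted p = 0.549). The remaining gene was at 0.13.

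The targets were read first. Hnrnpk (chr13:58391142-58403343, minus strand, mm10) was at 31142 on day 6, 29972 on day 9 and 27873 on day 12 in the lincRNA-p21 arm, 11349, 17016 and 12793 in the Hnrnpk arm, with 31243, 26944 and 23376 in the luciferase arm. The lincRNA-p21 and Hnrnpk arms did not overlap, and the difference, taken throughout as lincRNA-p21 minus Hnrnpk on the log2(value + 10) scale, was 1.13 (SE 0.16, limma adjusted p = 0.0141). Trp53cor1 (chr17:29057430-29079179, minus strand, a lincRNA that overlaps AC167363.1 on the opposite strand) read 90.5, 122 and 97 in the lincRNA-p21 arm, 131, 137 and 119.5 in the Hnrnpk arm, with 286.5, 237 and 250 in the luciferase arm. Trp53cor1 was thus below the luciferase level in every library of both knockdown arms, and the arms did not pass the test against each other (difference -0.31, SE 0.15, limma adjusted p = 0.318). Against luciferase Trp53cor1 was at -1.25 in the lincRNA-p21 arm, which did not pass (limma adjusted p = 0.0603), and at -0.94 in the Hnrnpk arm, which did (limma adjusted p = 0.00752). Both differences had an SE of 0.15, and p-values were adjusted separately for each comparison, so the larger difference was the one not called. Cdkn1a, the p53 target beside Trp53cor1, had values of 14594, 11286.5 and 11176 in the lincRNA-p21 arm, 15118, 11172.5 and 11221 in the Hnrnpk arm, with 12063.5, 11815 and 11815 in the luciferase arm (difference -0.01, limma adjusted p = 0.974).

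Of the 12541 genes, 409 (3.26%) were called by limma with Benjamini-Hochberg adjustment at 0.05. The called share of each gene list below is to be read beside this 3.26%. In the lincRNA-p21 arm 213 (1.7%) were higher and 196 (1.56%) were lower than in the Hnrnpk arm. Larger differences were mostly on the lower side: 114 called genes differed by at least 2-fold, 38 higher and 76 lower in the lincRNA-p21 arm. All 409 had the same sign on all 3 days, but the test itself favours such genes, so this is no separate evidence. Of all tested genes 20.6% were lower and 26.2% higher on all 3 days. At least 2-fold on each day, with 1 sign, were 50 genes, 10 higher and 40 lower. The median over all tested genes was 0.02. On day 6, 112 genes (0.893%) were at least 2-fold higher and 251 (2%) at least 2-fold lower in the lincRNA-p21 library, 2.89% in all. The counts were 76 (0.606%) and 157 (1.25%) on day 9, 1.86% in all, and 102 (0.813%) and 205 (1.63%) on day 12, 2.45% in all, with no test since each day has 1 library per arm.

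These calls depended on single libraries. The number of calls was 4, 7 and 14 without the lincRNA-p21 library of day 6, 9 or 12, and 295, 9 and 92 without the Hnrnpk library of day 6, 9 or 12. It was 959, 134 and 412 without the luciferase library of day 6, 9 or 12. The genes called in all 9 of these fits were Arhgap36, Prkcb, Nkx2-3 and C130074G19Rik (the last chosen after its values were seen), and Lrp2, Sod3 and Krt7 were called in 8.

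**Figure D1:**
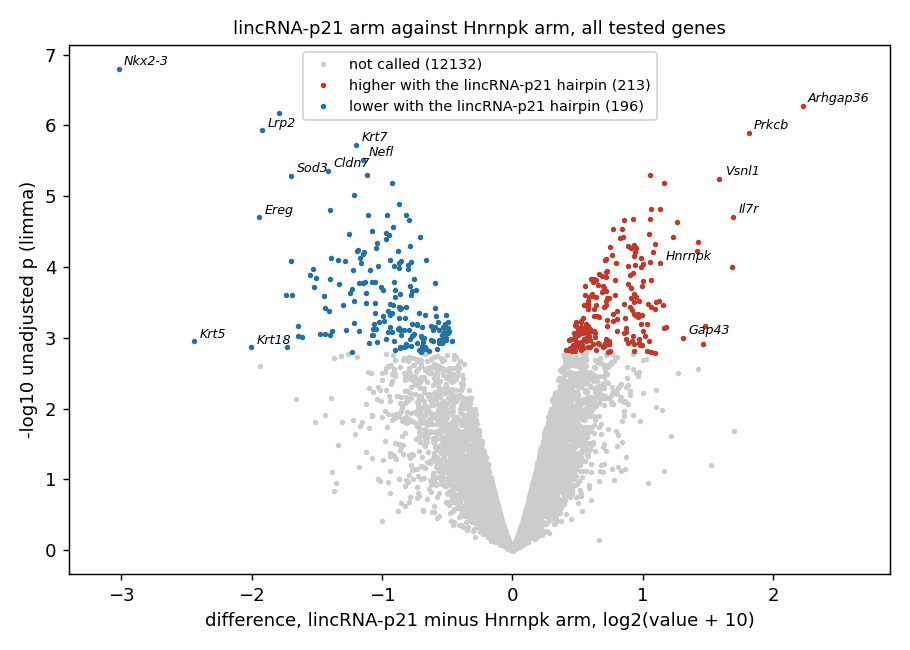
Each point is 1 of 12541 tested genes. The horizontal axis is the difference, lincRNA-p21 arm minus Hnrnpk arm, in log2(value + 10), and the vertical axis is the negative log10 of the unadjusted limma p. The 213 genes called higher in the lincRNA-p21 arm are red and the 196 called lower are blue, and the blue points reach farther from 0 (Nkx2-3 at -3.02, Krt5 at -2.44) than the red ones (Arhgap36 at 2.23).

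The luciferase level was set beside both arms at these genes, as a description without a test. Among the 409 called genes the luciferase mean lay nearer the lincRNA-p21 mean in 360 (88%) and nearer the Hnrnpk mean in 49 (21 higher and 28 lower in the lincRNA-p21 arm). Over all tested genes it lay nearer the lincRNA-p21 mean in 64%. On a scale where the Hnrnpk mean is 0 and the lincRNA-p21 mean is 1, the luciferase mean of the called genes had a median place of 0.974 (quartiles 0.732 and 1.22). It lay between the knockdown arms in 213 genes, beyond the lincRNA-p21 mean in 194 and beyond the Hnrnpk mean in 2. Against luciferase, in fits that share the luciferase libraries, 1 gene was called in the lincRNA-p21 arm (0.00797%) and 1570 in the Hnrnpk arm (12.5%, with 700 or 5.58% higher and 870 or 6.94% lower).

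**Figure D2:**
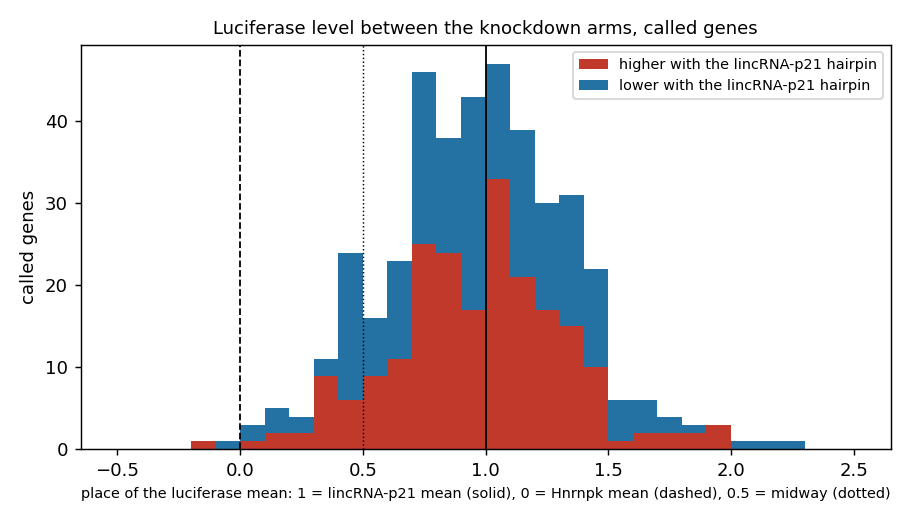
Histogram of the 409 called genes by the place of the luciferase mean, on an axis where 1 (solid line) is the mean of the lincRNA-p21 arm and 0 (dashed line) that of the Hnrnpk arm. Red marks genes higher and blue genes lower in the lincRNA-p21 arm. In both colours most genes lie around the solid line, with a median of 0.974 for all, and 49 genes lie left of 0.5 (dotted line), nearer the Hnrnpk mean.

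The largest positive difference was that of Arhgap36. This gene (chrX:49463945-49500244, plus strand), which encodes an activator of Hedgehog signalling, read 2005.5, 1549.5 and 765 in the lincRNA-p21 arm on days 6, 9 and 12, 390.5, 395.5 and 136.5 in the Hnrnpk arm, with 2628, 1516.5 and 600.5 in the luciferase arm. The lowest lincRNA-p21 library was above the highest Hnrnpk library, and the lincRNA-p21 and luciferase arms ran side by side. The difference was 2.23 (SE 0.17, limma adjusted p = 0.00283), or 4.68-fold. Prkcb (chr7:122288751-122634402, plus strand), a protein kinase C of calcium and diacylglycerol signalling, read 668.5, 967 and 619.5 in the lincRNA-p21 arm, 196, 268 and 158.5 in the Hnrnpk arm, with 960, 811 and 678.5 in the luciferase arm. Again the arms did not overlap (difference 1.81, SE 0.15, limma adjusted p = 0.00318). Of the 13 Hedgehog pathway genes tested only Arhgap36 was called (7.69%), and the list median was 0.14. Gli1, a transcription factor and target of the pathway, was at 0.68 (limma adjusted p = 0.298) and Hhip, a ligand-binding inhibitor, at 0.73 (limma adjusted p = 0.163), with the receptor gene Ptch1 at 0.14.

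Vsnl1, a calcium sensor of neurons, had 333.5, 178 and 127.5 in the lincRNA-p21 arm, 84.5, 53 and 45 in the Hnrnpk arm, with 174.5, 107.5 and 102 in the luciferase arm. The arms did not overlap, and the luciferase value lay between them on every day (difference 1.59, SE 0.16, limma adjusted p = 0.00591). Negr1, an adhesion protein of neurons, had 257, 199.5 and 177 in the lincRNA-p21 arm, 127.5, 80 and 55 in the Hnrnpk arm, with 326, 294 and 255.5 in the luciferase arm (difference 1.23, limma adjusted p = 0.0119). Chrm3, a muscarinic acetylcholine receptor, had 72, 50.5 and 27 in the lincRNA-p21 arm, 34, 16.5 and 3.5 in the Hnrnpk arm, with 65.5, 30 and 21.5 in the luciferase arm (difference 1.18, limma adjusted p = 0.0363). Chrm3 was higher on each day but its arms overlapped, since both declined over time. With 1 added Chrm3 was at 1.75 and not called (limma adjusted p = 0.0507), and with 50 added it was at 0.55.

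Among the rest of the 12 largest, Il7r, the interleukin-7 receptor alpha chain, had 125, 120 and 70 in the lincRNA-p21 arm, 27.5, 31 and 17 in the Hnrnpk arm, with 66.5, 82 and 70 in the luciferase arm (difference 1.69, limma adjusted p = 0.00983). Htra3, a secreted serine protease, had 218, 171 and 121.5 in the lincRNA-p21 arm, 62, 33.5 and 42.5 in the Hnrnpk arm, with 139.5, 185 and 186 in the luciferase arm (difference 1.68, limma adjusted p = 0.0146). Neither gene overlapped between the knockdown arms, and Il7r was at 1.03 with 50 added. Fam131b was at 1.42 (limma adjusted p = 0.0129) and Tcta at 1.41 (limma adjusted p = 0.0131). Fam131b overlaps Clcn1 and Tcta overlaps Rhoa, each on the opposite strand, and no source used here says whether reads were counted by strand. Other named genes also overlap a gene on the opposite strand, among them Hnrnpk (with Rmi1), Tjp3 (with Apba3) and Krt7 (with Gm671). With a library left out, the calls of Il7r, Fam131b and Negr1 remained in 5 of 9 fits, those of Htra3, Tcta and Hnrnpk in 4 and that of Chrm3 in 3. The adjusted p of these genes reached between 0.0912 (Il7r) and 0.219 (Chrm3) in those fits.

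A smaller set was higher in the lincRNA-p21 arm with the luciferase level nearer the Hnrnpk arm. Gap43 (chr16:42248442-42340651, minus strand), a growth cone protein of axons, had 2620, 697.5 and 438.5 on days 6, 9 and 12 in the lincRNA-p21 arm, 703, 264.5 and 272 in the Hnrnpk arm, with 772, 340 and 120 in the luciferase arm. It was the highest in the lincRNA-p21 arm on every day, most of all on day 6 (difference 1.31, SE 0.27, limma adjusted p = 0.0404). Against luciferase Gap43 was at 1.52 in the lincRNA-p21 arm and 0.21 in the Hnrnpk arm, neither called. Chst2, a sulfotransferase that modifies sugar chains, had 908, 807 and 588 in the lincRNA-p21 arm, 479.5, 294 and 207.5 in the Hnrnpk arm, with 474, 502.5 and 322 in the luciferase arm (difference 1.26, limma adjusted p = 0.0100). The lincRNA-p21 libraries of Chst2 were above all others. Cps1, the first enzyme of the urea cycle, had 94, 79 and 47.5 in the lincRNA-p21 arm, 55.5, 11 and 8 in the Hnrnpk arm, with 51, 30 and 15 in the luciferase arm (difference 1.48, limma adjusted p = 0.0359). Slc2a13, a myo-inositol transporter gene, was at 1.06 (limma adjusted p = 0.0486, and 0.0513 or 0.0570 with 1 or 50 added, where it was not called) and Ube2ql1, a gene of the ubiquitin-conjugating family, also at 1.06 (limma adjusted p = 0.0257). With a library left out, the call of Chst2 remained in 5 of 9 fits, those of Gap43, Cps1 and Ube2ql1 in 3 and that of Slc2a13 in 2. With 50 added Cps1 was at 0.76 and Slc2a13 at 0.61.

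**Figure D3:**
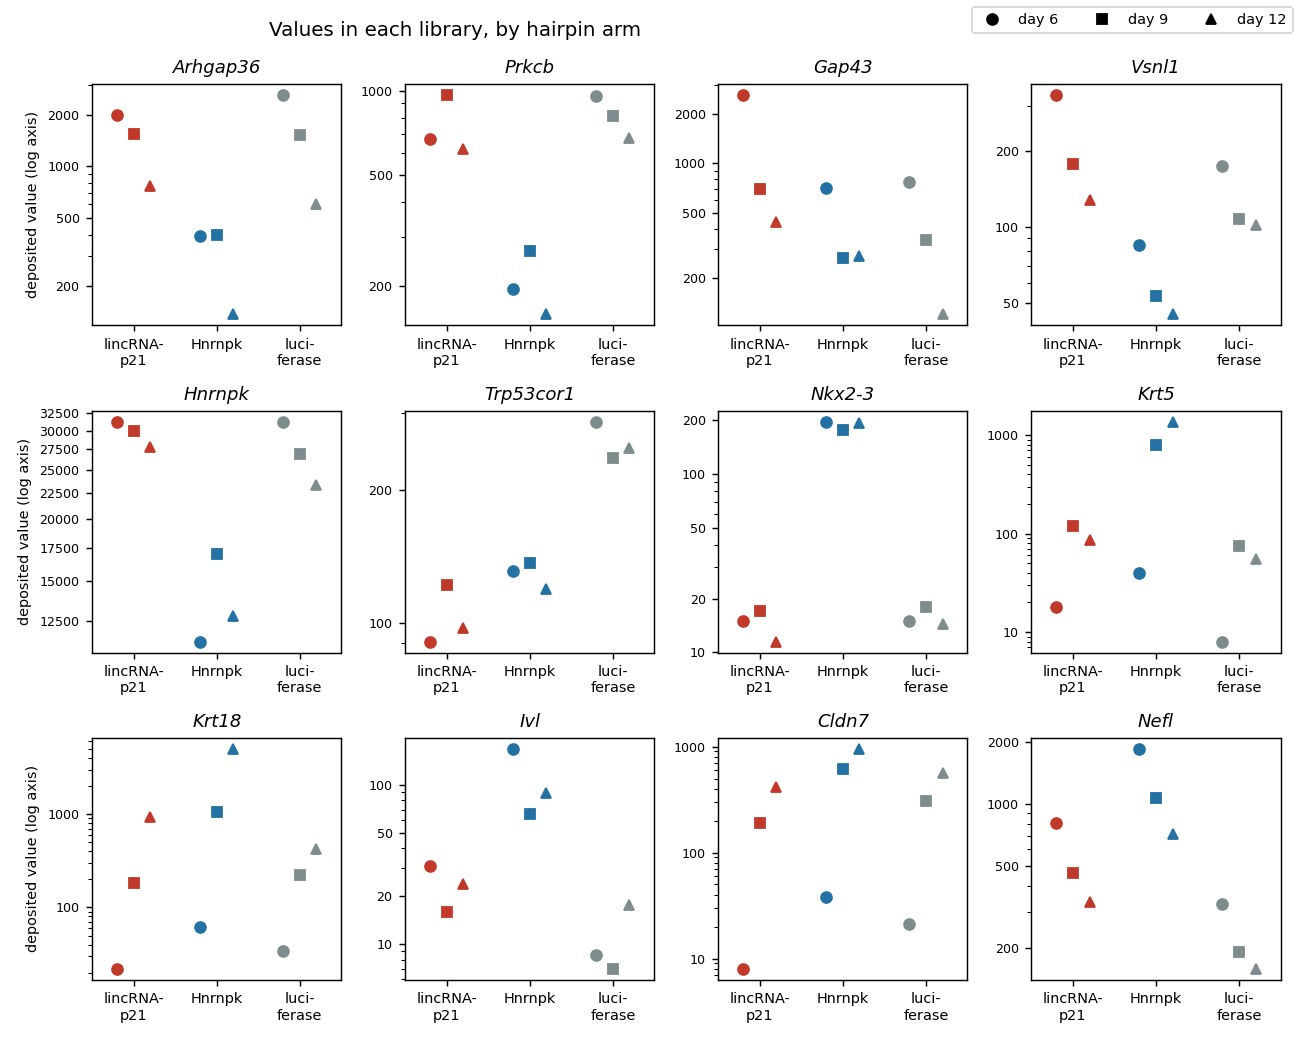
Deposited value (log axis) of 12 genes in each library, with the lincRNA-p21 arm in red, the Hnrnpk arm in blue and the luciferase arm in grey, and circles, squares and triangles for days 6, 9 and 12. Arhgap36, Prkcb and Nkx2-3 separate the Hnrnpk arm from both other arms, Gap43 is highest in the lincRNA-p21 arm on each day, and Nefl is in steps, with the lincRNA-p21 arm (808.5, 459 and 335.5) between the Hnrnpk arm above it and the luciferase arm below it.

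On the lower side the largest difference was that of Nkx2-3 (chr19:43612325-43615892, plus strand), a homeobox factor of gut and spleen development. It had 15, 17 and 11.5 on days 6, 9 and 12 in the lincRNA-p21 arm, 196, 176.5 and 192 in the Hnrnpk arm, with 15, 18 and 14.5 in the luciferase arm. The lincRNA-p21 and luciferase libraries lay together near the added 10, and the Hnrnpk libraries lay far above them with little change over time (difference -3.02, SE 0.19, limma adjusted p = 0.00199). The size of this difference depends on the added value, at -3.62 with 1 added and -1.89 with 50 added. Of 48 Hox and other positional genes tested Nkx2-3 alone was called (2.08%), with a list median of 0.12. Lrp2 (chr2:69424340-69586065, minus strand), the endocytic receptor megalin of absorptive epithelia, had 342.5, 117 and 230 in the lincRNA-p21 arm, 1409, 459.5 and 863 in the Hnrnpk arm, with 121, 65 and 100 in the luciferase arm (difference -1.92, SE 0.16, limma adjusted p = 0.00318). The 3 arms formed steps on each day, and against luciferase Lrp2 was at 1.10 in the lincRNA-p21 arm, not called, and at 3.02 in the Hnrnpk arm, called.

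Ereg, a ligand of the EGF receptor, had 118, 92 and 79.5 in the lincRNA-p21 arm, 648.5, 327 and 288.5 in the Hnrnpk arm, with 70.5, 69.5 and 81.5 in the luciferase arm (difference -1.94, limma adjusted p = 0.00983). Sod3, the extracellular superoxide dismutase, had 184, 117 and 67 in the lincRNA-p21 arm, 564, 312.5 and 337.5 in the Hnrnpk arm, with 168.5, 111 and 79.5 in the luciferase arm (difference -1.70, limma adjusted p = 0.00584). Sfrp4, a secreted Wnt antagonist, had 468, 189.5 and 122.5 in the lincRNA-p21 arm, 1093.5, 533 and 708 in the Hnrnpk arm, with 426.5, 211 and 115 in the luciferase arm (difference -1.70, limma adjusted p = 0.0141). In all 3 genes every lincRNA-p21 library was below every Hnrnpk library, and the luciferase mean lay nearer the lincRNA-p21 mean. Cytl1, a small secreted protein, was at -1.65 (limma adjusted p = 0.0395) with lincRNA-p21 values of 13 to 18.5. Tmie, known from the mechanotransduction of inner ear hair cells, was at -1.73 (limma adjusted p = 0.0451) and overlaps Als2cl on the opposite strand, and Klhl30 was at -1.64 (limma adjusted p = 0.0358). The calls of Tmie and Klhl30 remained in 2 of 9 fits with a library left out, that of Cytl1 in 3, and those of Ereg and Sfrp4 in 5. With 50 added Tmie (limma adjusted p = 0.0605), Klhl30 (limma adjusted p = 0.0561) and Cytl1 (-0.93, limma adjusted p = 0.0548) were not called.

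Epithelial genes lay mostly lower in the lincRNA-p21 arm. All gene lists of this report were written with earlier results of these data known. The called shares of the lists are therefore descriptions and no test of a list as a group. Of 45 epithelial junction, keratin and epithelial regulator genes tested, 21 were called lower and 0 higher in the lincRNA-p21 arm (46.7%, against 3.26% of all genes). The list median was -0.58, against 0.02 for all genes, and it stood at -0.63, -0.63 and -0.50 on days 6, 9 and 12. In 38 of the 45 the lincRNA-p21 library was the lower on every day and in 0 it was the higher, against 20.6% and 26.2% of all genes. The summed level of the list was between 31016.5 and 90242 in the lincRNA-p21 arm, between 53137 and 126485.5 in the Hnrnpk arm and between 41266 and 123534.5 in the luciferase arm. In bulk RNA fewer epithelial cells and less of these RNAs per cell cannot be told apart. Among the 21 called were Krt18, Cldn7, Cldn4, Tjp3, Krt7, Prss8, Cdh1, Epcam, Cgn, Crb3, Esrp1, Krt8, Spint1, Krt19, St14, Dsg2, Lsr, Esrp2 and Spint2. The 3 members above 0 were Elf3 (0.05), Pkp1 (0.17) and Ehf (0.48), all transcription factors or plaque proteins of epithelia and none called.

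The tight junction claudins were among the clearest. Cldn7 (chr11:69964779-69967885, plus strand) had 8, 188.5 and 414.5 on days 6, 9 and 12 in the lincRNA-p21 arm, 38, 612 and 951 in the Hnrnpk arm, with 21, 310 and 564 in the luciferase arm. All 3 arms climbed with time, and on each day the lincRNA-p21 library was lowest, the Hnrnpk library highest and the luciferase library between them (difference -1.41, SE 0.14, limma adjusted p = 0.00584). Cldn4 had 27.5, 620.5 and 1307 in the lincRNA-p21 arm, 115, 1494 and 3037 in the Hnrnpk arm, with 32, 610 and 1811 in the luciferase arm (difference -1.40, limma adjusted p = 0.00983). Cdh1, which encodes E-cadherin of the adherens junction, had 553, 1360.5 and 2396 in the lincRNA-p21 arm, 1235, 3214.5 and 4971 in the Hnrnpk arm, with 772.5, 1135 and 2195 in the luciferase arm (difference -1.14, limma adjusted p = 0.0136). The lincRNA-p21 and luciferase libraries of Cdh1 crossed between days while the Hnrnpk library was always above both. Tjp3, a tight junction scaffold, was at -1.21 (limma adjusted p = 0.0239). Cldn6, a claudin of early embryonic epithelia, was at -1.52 but varied by day and was not called (limma adjusted p = 0.147). The epithelial splicing regulators Esrp1 and Esrp2 were lower, at -0.91 (limma adjusted p = 0.0250) and -0.56 (limma adjusted p = 0.0416).

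Simple keratins, the filament proteins of single-layered epithelia, were lower too. Krt18 (chr15:102028180-102032027, plus strand) had 22, 184.5 and 928.5 in the lincRNA-p21 arm, 61, 1048.5 and 4980 in the Hnrnpk arm, with 34, 221 and 422 in the luciferase arm (differences of -1.15, -2.44 and -2.41 on the 3 days, 4.0-fold lower over all, limma adjusted p = 0.0451). With 50 added Krt18 was not called (-1.74, limma adjusted p = 0.0828). Krt8, its partner, was at -0.81 (limma adjusted p = 0.0444). Krt7 (chr15:101411043-101430313, plus strand) had 47.5, 845 and 2466 in the lincRNA-p21 arm, 135.5, 1724.5 and 5842 in the Hnrnpk arm, with 76.5, 1324.5 and 4038 in the luciferase arm (difference -1.20, SE 0.10, limma adjusted p = 0.00393). Unlike Krt18, Krt7 had its luciferase value between the arms on all 3 days. Against luciferase Krt7 was at -0.65 in the lincRNA-p21 arm, not called, and at 0.55 in the Hnrnpk arm, called. Both differences had an SE of 0.10, and p-values were adjusted separately for each comparison, so the smaller difference was the one called. With a library left out the call of Krt7 remained in 8 of 9 fits, those of Cldn7 and Epcam in 6 and that of Krt18 in 3. Over the epithelial list, leaving out a lincRNA-p21 library kept 0, 1 and 3 calls lower (days 6, 9 and 12) and leaving out an Hnrnpk library 15, 1 and 8, while the median stayed between -0.52 and -0.70 over the 9 fits. Without the Hnrnpk library of day 6, 1 member was called higher.

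Genes of stratified skin epithelium moved in the same direction. Of 30 keratinocyte genes tested, 12 were called lower and 0 higher in the lincRNA-p21 arm (40%, against 3.26% of all genes). The list median was -0.85, or -0.80, -0.79 and -0.84 on days 6, 9 and 12. In all 12 the luciferase mean lay nearer the lincRNA-p21 mean, as it did in 360 of the 409 called genes (88%). Of the 21 called epithelial genes it lay nearer the lincRNA-p21 mean in 16 and nearer the Hnrnpk mean in 5. Krt5 (chr15:101707070-101712898, minus strand), the keratin of basal keratinocytes, had 18, 120 and 85.5 in the lincRNA-p21 arm, 39.5, 804 and 1368.5 in the Hnrnpk arm, with 8, 74.5 and 55 in the luciferase arm (difference -2.44, SE 0.51, limma adjusted p = 0.0418). The gap in Krt5 grew over the days, with -0.82, -2.65 and -3.85 on days 6, 9 and 12. Ivl, which encodes involucrin of the cornified envelope, had 31, 16 and 24 in the lincRNA-p21 arm, 168.5, 66 and 89 in the Hnrnpk arm, with 8.5, 7 and 17.5 in the luciferase arm (difference -1.74, limma adjusted p = 0.0215). Sprr3, a small proline-rich envelope protein, had 25, 60 and 112.5 in the lincRNA-p21 arm, 117, 115 and 621.5 in the Hnrnpk arm, with 18, 51 and 133 in the luciferase arm (difference -1.69, limma adjusted p = 0.0215). For Ivl and Sprr3 no lincRNA-p21 library reached the lowest Hnrnpk library, by a narrow margin for Sprr3 (112.5 against 115).

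The other keratinocyte genes called were Ly6d (-1.53), Sprr1a (-1.39), the envelope cross-linker Tgm1 (-1.28), Krt17 (-1.19), Krt6b (-1.07), the desmosomal cadherin Dsg3 (-0.92), Krt16 (-0.88), Sfn (-0.87), the epithelial 14-3-3 protein, and Klk10 (-0.86). Krt14, the partner of Krt5, was at -0.67 (limma adjusted p = 0.0651), and Krt10 and Krt1, keratins of the layers above, were at -0.16 and 0.35, neither called. Krt6b, Krt16, Krt17 and the Sprr genes belong to families of near copies, and their values are uncertain to that extent. The summed level of the list was between 21339 and 47389 in the lincRNA-p21 arm, between 29733.5 and 71778.5 in the Hnrnpk arm and between 17603.5 and 50645 in the luciferase arm. With 50 added in place of 10, Krt5 was not called (-2.04, limma adjusted p = 0.0772) and Ivl was at -1.05. Without the lincRNA-p21 library of any day 0 keratinocyte genes were called, and without the Hnrnpk library of day 9 there was 1, with the median between -0.75 and -0.87 over the 9 fits.

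**Figure D4:**
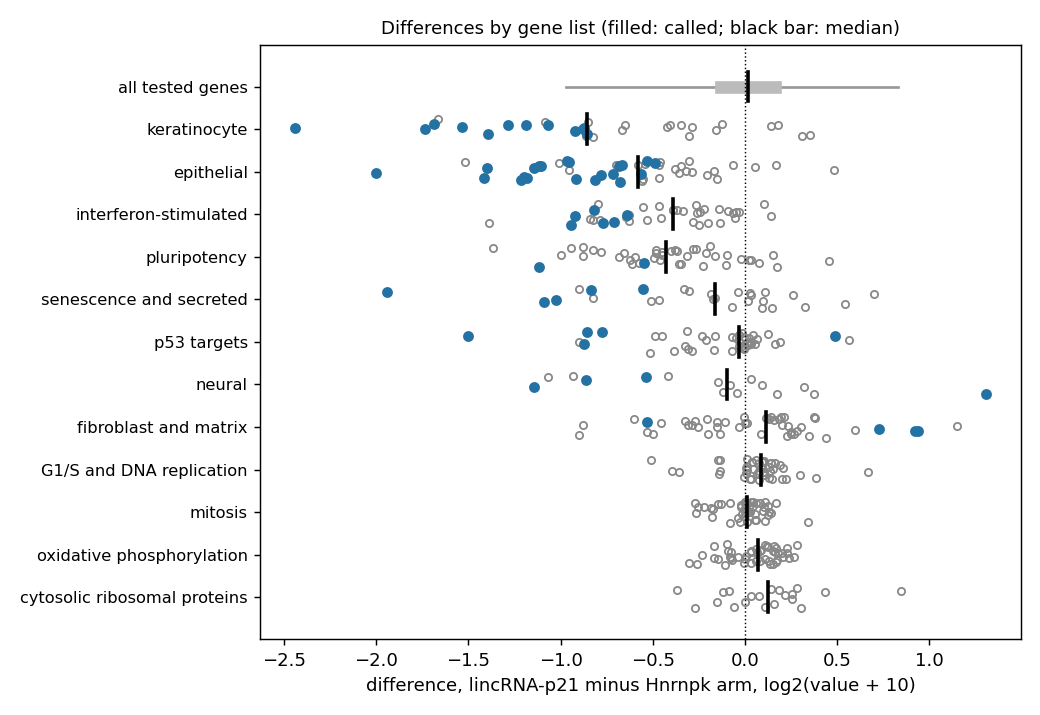
Difference of each list member (circles, filled where called), lincRNA-p21 arm minus Hnrnpk arm in log2(value + 10), with the median of each list as a black bar. For all tested genes the thick bar spans the quartiles and the thin line the 1st to 99th percentile. The keratinocyte (median -0.85) and epithelial (-0.58) members lie mostly left of 0, while the mitosis, oxidative phosphorylation and ribosomal protein lists centre close to 0 with no filled circle.

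Promoter sequence was read for these genes because AP-1, a factor that binds the element TGANTCA, is known to drive involucrin and small proline-rich genes in keratinocytes. The motif was chosen after the values were seen. It was searched on both strands in the 250 bases before each start site in RefSeq promoters of GRCm38.p6, which hold 19 of the 30 keratinocyte and 28 of the 45 epithelial genes. The element was in 8 of the 19 keratinocyte promoters (42.1%), in 2 of the 7 of called genes and 6 of the 12 of genes not called, and in 3 of the 28 epithelial promoters (10.7%). Of the promoters of all tested genes 5.45% held it, and of all promoters 6.75%. The sites of called genes are shown with the element in capitals and all 5′ to 3′ on the minus strand of the genome, at chr3:92573825-92573871 for Ivl, chr3:92486001-92486047 and the overlapping chr3:92485971-92486017 for Sprr1a, chr5:134947148-134947184 and chr5:134947066-134947112 for Cldn4, and chr7:30973508-30973554 for Lsr.
Ivl: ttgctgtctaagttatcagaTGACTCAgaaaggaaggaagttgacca
Sprr1a, first site: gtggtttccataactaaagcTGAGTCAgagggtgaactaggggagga
Sprr1a, next site: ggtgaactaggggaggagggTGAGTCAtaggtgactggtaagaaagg
Cldn4, first site: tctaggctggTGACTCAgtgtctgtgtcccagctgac
Cldn4, next site: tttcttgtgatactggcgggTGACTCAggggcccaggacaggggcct
Lsr: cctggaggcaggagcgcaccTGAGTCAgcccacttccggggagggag
The sites printed are all of called genes, and a match is a description of the sequence, not a bound site.

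Interferon-stimulated genes, which are induced by interferons and viral RNA and hold antiviral sensors and effectors, also lay lower in the lincRNA-p21 arm. Of 38 tested, 6 were called lower and 0 higher (15.8%, against 3.26% of all genes), with a median of -0.39. Of the 38, 36 were below 0 (5770 of the 12541 genes were). The medians were -0.15, -0.31 and -0.75 on days 6, 9 and 12. Ddx58, the viral RNA sensor RIG-I, had 341, 404 and 542 in the lincRNA-p21 arm, 562, 752 and 994 in the Hnrnpk arm, with 318, 400 and 506 in the luciferase arm (difference -0.82, SE 0.10, limma adjusted p = 0.00983). Xaf1, an interferon-induced proapoptotic protein, had 239, 213.5 and 212.5 in the lincRNA-p21 arm, 453, 368 and 490.5 in the Hnrnpk arm, with 208, 161 and 155 in the luciferase arm (difference -0.94, limma adjusted p = 0.0141). Every lincRNA-p21 library of Ddx58 and Xaf1 was below every Hnrnpk library and above the luciferase library of its day. Samd9l, an antiviral factor, was at -0.92 (limma adjusted p = 0.0373), Oas1a, an oligoadenylate synthetase with close paralogs, at -0.77 (limma adjusted p = 0.0203), and the ADP-ribosyltransferase genes Parp9 at -0.71 (limma adjusted p = 0.0119) and Parp14 at -0.64 (limma adjusted p = 0.0479). Isg15, a ubiquitin-like modifier, had 58, 47.5 and 35 in the lincRNA-p21 arm, 72.5, 121 and 282.5 in the Hnrnpk arm, with 11, 24 and 20.5 in the luciferase arm, and was not called (-1.39, limma adjusted p = 0.101). With any lincRNA-p21 library or the Hnrnpk library of day 9 left out 0 of the list were called, and the median ran from -0.24 to -0.53 over the 9 fits. Cd68, given above, was at -1.10 and not called, and its part in these differences was not tested.

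The core of the interferon-stimulated response element, GAAA followed by any 2 bases and GAAA again, was searched in the same promoter windows on both strands. It was in 11 of the 31 list members with a promoter in the table (35.5%), in 1 of 4 called members and in 10 of 27 not called. Of promoters of all tested genes 3.1% held it, and of all promoters 2.98%. Oas1a, the called member that holds it, has a pair of overlapping matches just before its start site. They are shown because they carry the element in a called gene, in capitals, at chr5:120907526-120907565 (GRCm38.p6, minus strand), and the second ends nearer the start.
Oas1a, first match: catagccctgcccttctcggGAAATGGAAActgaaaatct
Oas1a, second match: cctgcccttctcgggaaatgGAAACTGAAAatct
The element is common in the list whether or not a member was called.

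**Figure D5:**
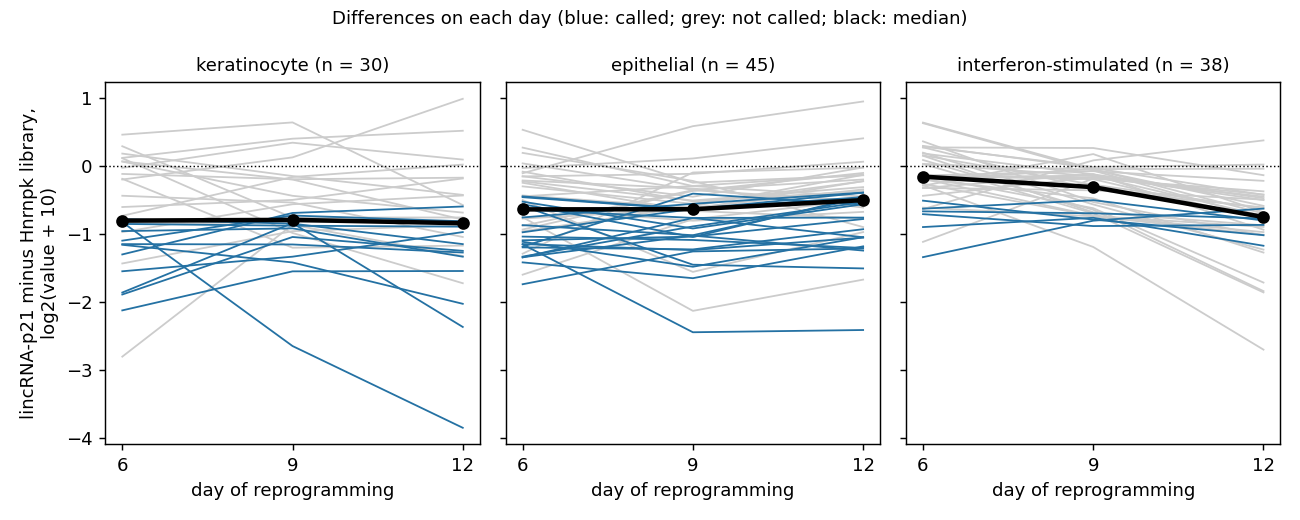
Difference between the lincRNA-p21 and Hnrnpk libraries of the same day, in log2(value + 10), for each member of the keratinocyte, epithelial and interferon-stimulated lists, with called genes in blue, others in grey and the median in black. The keratinocyte and epithelial medians are nearly level over the days, and the interferon median is at -0.15 on day 6 and -0.75 on day 12.

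Pluripotency genes gave few calls. Of 42 tested, 36 were below 0 (5770 of the 12541 genes were), and 2 were called lower and 0 higher in the lincRNA-p21 arm (4.76%, close to the share among all genes), with a median of -0.43, or -0.10, -0.62 and -0.41 on days 6, 9 and 12. The median was -0.24 without the Hnrnpk library of day 9, -0.28 without that of day 12 and -0.61 without that of day 6, and 0 were called without the Hnrnpk library of day 9 or the lincRNA-p21 library of day 6 or 9. The called ones were Epcam, an adhesion molecule shared with the epithelial list (-1.11, limma adjusted p = 0.00584), and Klf5, a transcription factor of embryonic stem cells and epithelia (-0.55, limma adjusted p = 0.0417). Nanog, a core pluripotency factor, had 121, 351 and 629 in the lincRNA-p21 arm, 143, 549.5 and 893 in the Hnrnpk arm, with 179.5, 238 and 211 in the luciferase arm. It was below the Hnrnpk library on each day but not called (-0.45, SE 0.38, limma adjusted p = 0.580). Lin28a, a regulator of let-7 processing, was at -0.88 (SE 0.76, limma adjusted p = 0.594) and Utf1, a chromatin factor of undifferentiated cells, at -0.82 (SE 0.65, limma adjusted p = 0.560). The standard errors of these 3 genes were close to the sizes of their differences, and a p above the threshold does not show that the arms are alike. Klf4, whose values join plasmid and chromosomal transcripts, had 42046.5, 39217 and 39217 in the lincRNA-p21 arm, 27901, 25958 and 22588 in the Hnrnpk arm, with 56808.5, 39217 and 39217 in the luciferase arm (difference 0.66, limma adjusted p = 0.0430, remaining in 1 of 9 fits with a library left out). Myc was at 0.28 (limma adjusted p = 0.437) and Sox2 at 0.18 (limma adjusted p = 0.385), neither called. Klf4 and Myc both read 27901 in the Hnrnpk library of day 6 and 56808.5 in the luciferase library of day 6. Klf4 also read 39217 in several libraries of the lincRNA-p21 and luciferase arms. The scale thus gives 1 value to different genes and libraries, which limits how finely the Klf4 difference can be read.

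Stress and secretory genes contributed named members rather than a shift of their lists. Of 44 p53 targets tested, 4 were called lower and 1 higher (11.4%), with a median of -0.03. Gdf15, a stress cytokine, had 141, 36 and 32.5 in the lincRNA-p21 arm, 461, 137 and 87 in the Hnrnpk arm, with 77, 38.5 and 28.5 in the luciferase arm (difference -1.50, limma adjusted p = 0.0176). It was lower than in the Hnrnpk arm on each day and near luciferase on days 9 and 12. Pmaip1, the proapoptotic Noxa, was at -0.87 (limma adjusted p = 0.0258), the ephrin receptor Epha2 at -0.86 (limma adjusted p = 0.0392) and Gadd45a, a DNA damage gene, at -0.78 (limma adjusted p = 0.0141), while the phosphatase gene Ptp4a3 was higher, at 0.49 (limma adjusted p = 0.0358). Of 27 senescence and secretory genes 5 were called lower and 0 higher (18.5%, median -0.16). Besides Ereg these were the monocyte chemokine Ccl2 at -1.09 (limma adjusted p = 0.0152), the adhesion molecule Icam1 at -1.03 (limma adjusted p = 0.0145), urokinase, Plau, at -0.83 (limma adjusted p = 0.0451), and the growth factor Csf1 at -0.55 (limma adjusted p = 0.0425). The part of the macrophage gene Cd68 (-1.10, not called) in Ccl2 and Icam1 was not tested. Of 33 integrated stress response genes the transcription factors Ddit3 (-0.69, limma adjusted p = 0.0446) and Atf5 (-0.60, limma adjusted p = 0.0182) were called lower (6.06%, median -0.04), and Ddit3 shares its locus with Mars on the opposite strand. The call of Gdf15 remained in 5 of 9 fits with a library left out. Those of Gadd45a, Ccl2, Icam1 and Atf5 remained in 4, those of Pmaip1 and Epha2 in 3, and those of Ddit3 and Plau in 2.

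Fibroblast and matrix genes differed in both directions. Of 47 tested, 3 were called higher and 1 lower in the lincRNA-p21 arm (8.51%), with a median of 0.11 that was -0.10, 0.37 and -0.07 on days 6, 9 and 12. Col5a1, a fibrillar collagen chain, had 10919, 9918.5 and 8560.5 in the lincRNA-p21 arm, 6730, 4215 and 4658 in the Hnrnpk arm, with 7842, 9600 and 8511 in the luciferase arm (difference 0.94, limma adjusted p = 0.0291). Eln, elastin, was at 0.92 (limma adjusted p = 0.0417) and Mmp2, a gelatinase, at 0.73 (limma adjusted p = 0.0220). The largest positive difference of the list, 1.15, was not among the calls. Cdh2, N-cadherin, was lower at -0.53 (limma adjusted p = 0.0398), with E-cadherin lower in the same comparison. The calls of Col5a1, Eln and Mmp2 remained in 3 of 9 fits with a library left out, and that of Cdh2 in 2. The most abundant matrix genes share the highest value of the scale. Col1a2 read 118715 in every lincRNA-p21 library and in every luciferase library and 62336 to 118715 in the Hnrnpk arm, so levels at that value could not be told apart.

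Gap43 was higher and Nefl lower in the lincRNA-p21 arm. Nefl (chr14:68083863-68089095, plus strand), the light chain of neurofilaments, had 808.5, 459 and 335.5 in the lincRNA-p21 arm, 1842, 1061.5 and 714 in the Hnrnpk arm, with 325.5, 192 and 158.5 in the luciferase arm. Both knockdown arms were above luciferase on every day, the Hnrnpk arm more so (difference -1.15, SE 0.11, limma adjusted p = 0.00547). Against luciferase Nefl was at 1.18 in the lincRNA-p21 arm and 2.33 in the Hnrnpk arm, both called. Nefm, the medium chain whose gene overlaps Nefl on the opposite strand, was at -0.93 (limma adjusted p = 0.0812). Tubb3, a tubulin of neurons, had 1878, 709 and 328 in the lincRNA-p21 arm, 1630, 614 and 359.5 in the Hnrnpk arm, with 839, 210.5 and 174.5 in the luciferase arm. Both knockdown arms were thus above luciferase in Tubb3 and close to each other (difference 0.09, SE 0.16, limma adjusted p = 0.817). Of 16 neural genes tested 1 was called higher (Gap43) and 3 lower (Nefl, the progenitor filament gene Nes at -0.86 and Uchl1, a neuronal deubiquitinase, at -0.54), 25% in all, with a median of -0.10. The call of Nefl remained in 6 of 9 fits with a library left out, that of Nes in 3 and that of Uchl1 in 2.

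Of the called genes lower in the lincRNA-p21 arm, 28 had the luciferase level nearer the Hnrnpk arm. Besides Krt7, Ly6g6c, a surface protein gene, had 23, 171.5 and 283.5 in the lincRNA-p21 arm, 85, 363 and 522.5 in the Hnrnpk arm, with 58.5, 292 and 557.5 in the luciferase arm (difference -1.14, limma adjusted p = 0.0131). Malat1, a nuclear long noncoding RNA, had 16267, 15603.5 and 27538 in the lincRNA-p21 arm, 27259, 51284 and 45546 in the Hnrnpk arm, with 18544.5, 31142 and 39263 in the luciferase arm (difference -1.06, limma adjusted p = 0.0352). Both were lowest in the lincRNA-p21 arm on each day. Dgka, a diacylglycerol kinase gene that overlaps Pmel on the opposite strand, was at -1.03 (limma adjusted p = 0.0130), and Kcnh2, a potassium channel gene, at -1.04 (limma adjusted p = 0.0420) or -0.68 with 50 added. Runx1t1, a corepressor outside that group, had 98, 102.5 and 118 in the lincRNA-p21 arm, 282, 243 and 252 in the Hnrnpk arm, with 149.5, 149 and 170 in the luciferase arm (difference -1.21, limma adjusted p = 0.00814). Its luciferase mean lay nearer the lincRNA-p21 mean. Its luciferase values lay between the arms on all 3 days, as they did for Cldn7, Krt7 and Vsnl1, the 4 called genes whose luciferase mean was between the arms and at least 0.5 from each. The calls of Ly6g6c, Dgka and Runx1t1 remained in 5 of 9 fits with a library left out, that of Kcnh2 in 3 and that of Malat1 in 2.

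Wnt pathway genes split by member. Of 46 tested, 3 were called higher and 3 lower in the lincRNA-p21 arm (13%), with a median of 0.03. The ligand gene Wnt16 had 1150.5, 777 and 589.5 in the lincRNA-p21 arm, 709, 332.5 and 276 in the Hnrnpk arm, with 988, 766 and 620 in the luciferase arm (difference 0.99, limma adjusted p = 0.0146). Wnt16 was higher than in the Hnrnpk arm and near luciferase on each day. The ligand gene Wnt2 was at 0.80 (limma adjusted p = 0.0372) and Sostdc1, a secreted antagonist of Wnt and BMP, at 0.89 (limma adjusted p = 0.0428). Lower were the epithelial ligand gene Wnt7b at -1.22 (limma adjusted p = 0.0341), the receptor gene Fzd6 at -0.67 (limma adjusted p = 0.0141) and the antagonist Sfrp4 given above. Wnt7b was at -0.68 with 50 added and then not called (limma adjusted p = 0.0784). Of 24 imprinted genes Begain, a postsynaptic protein gene, was called higher (4.17%), at 379, 927.5 and 1323 in the lincRNA-p21 arm, 186, 483 and 554 in the Hnrnpk arm, with 911, 1900 and 2074 in the luciferase arm (difference 1.05, limma adjusted p = 0.00983). Begain was below luciferase in both knockdown arms, more so in the Hnrnpk arm. The call of Begain remained in 5 of 9 fits with a library left out, that of Wnt16 in 4, that of Wnt7b in 3 and that of Sostdc1 in 2.

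Lists of chromatin and growth machinery held few or no called genes, which does not show that the arms are alike. The series concerns H3K9me3 and CpG methylation at pluripotency promoters, and of 23 H3K9 methylation genes 0 were called (median 0.08). Of 20 DNA methylation genes Gadd45a was called (5%, median 0.05), while Dnmt3b, a methyltransferase of early embryonic cells, was at -0.85 (SE 0.64, limma adjusted p = 0.530). None was called among 29 Polycomb, 49 G1/S and replication, 47 mitosis, 48 oxidative phosphorylation, 37 glycolysis and hypoxia, 41 ribosome biogenesis, 21 SR splicing factor, 44 TGF-beta, BMP and Activin, 31 cholesterol and fatty acid synthesis or 20 contractile genes. The medians of these 10 lists over the days were between -0.20 and 0.12, but some differed by day. Oxidative phosphorylation had medians of 0.35, -0.04 and -0.14 on days 6, 9 and 12, and G1/S and replication 0.32, -0.03 and -0.04, with 41 of 49 members above 0 over the days (6769 of the 12541 genes were). Fstl3, a secreted activin antagonist, was at -0.91 (limma adjusted p = 0.0651) and Des, the muscle filament desmin, at -0.80 (limma adjusted p = 0.0555), neither called. Of 31 entries for hnRNP and poly(C)-binding proteins Hnrnpk itself was the only call (3.23%, median 0.11), and of 10 neighbours of lincRNA-p21 on chromosome 17 the kinase gene Pim1 was called lower (10%), at -0.54 (limma adjusted p = 0.0428). The call of Pim1 remained in 2 of 9 fits with a library left out. Of 9 early lineage genes 2 were called lower (22.2%, median -0.50), Nes and Krt8, both given above.

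No gene passed the test for a difference that changed over the days (limma with 2 residual degrees of freedom, 0%, lowest adjusted p = 0.241). An unadjusted limma p under 0.05 was found for 1815 genes, where 627 would be expected by chance. All genes share the same libraries and their p-values can move together, so this excess is no test of change over the days. Genes with the largest slopes in either direction, among those above a minimum level, are given as values. The gap in Krt5 widened by -1.51 per 3 days. Sprr2a2, a small proline-rich gene that shares sequence with Sprr2a1, had 755, 1646 and 6296.5 on days 6, 9 and 12 in the lincRNA-p21 arm, 614, 4779 and 32933.5 in the Hnrnpk arm, with 558.5, 2503 and 6273 in the luciferase arm. Car4, a membrane carbonic anhydrase, had 1.5, 17 and 132 in the lincRNA-p21 arm, 1, 65 and 886.5 in the Hnrnpk arm, with 0.5, 6.5 and 13 in the luciferase arm. Both were nearly equal between the knockdown arms on day 6 and lower in the lincRNA-p21 arm on day 12. Ush1c, a scaffold of microvilli and hair cells, had 20, 152.5 and 503 in the lincRNA-p21 arm, 125.5, 260.5 and 365.5 in the Hnrnpk arm, with 24.5, 268.5 and 745.5 in the luciferase arm. It was lower in the lincRNA-p21 arm than in the Hnrnpk arm on day 6 and higher on day 12. Kctd12, an auxiliary subunit of GABA-B receptors, had 1.5, 291.5 and 56.5 in the lincRNA-p21 arm, 0.5, 77.5 and 0.5 in the Hnrnpk arm, with 239, 306.5 and 86.5 in the luciferase arm (slope 1.27 per 3 days). Xirp2, an actin-binding protein of muscle, had 49, 129 and 180 in the lincRNA-p21 arm, 242, 172 and 213 in the Hnrnpk arm, with 43, 145.5 and 203 in the luciferase arm, the widest gap being on day 6. Krt4, a keratin of the oral and esophageal lining, had 0.5, 19 and 32.5 in the lincRNA-p21 arm, 1, 86.5 and 233 in the Hnrnpk arm, with 0, 12.5 and 46 in the luciferase arm. Krt4 was near 0 in every library of day 6.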

How the data were processed

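RNA-seq of 9 libraries was analysed, 1 for each of 3 hairpin arms on days 6, 9 and 12. The deposited values are a signal per gene that the authors had already scaled. The submitters' processing notes name RSEM 1.2.12, Bowtie 1.0.1 and mm10 without their roles, and say nothing of how the signal was scaled or replicates were merged. Read depth is therefore unknown, and no count test was used.

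Values were transformed as log2(value + 10), and genes with a mean under 20 were left out. limma 3.58.1 in R 4.3.3 was fitted to all 9 libraries with terms for arm and day and an intensity trend, tested on simulated data first. The p-values were adjusted over all tested genes, separately for each comparison (Benjamini-Hochberg, 0.05). The effect is lincRNA-p21 minus Hnrnpk. A change of the arm difference over the days was tested as a slope per 3 days. The genes named were the 12 largest called differences in each direction, the 5 largest in each direction with luciferase nearer the Hnrnpk arm, those with luciferase between the arms, the genes with the largest slopes and up to 4 members of each list described. Other called list members were named beside their count, and a few are not reported here. The members and lists were chosen with earlier results of these data known. Gene positions are from GENCODE M21 (mm10), and promoters from RefSeq (GRCm38.p6).

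Alternatives were other added values, other filters, median-centred libraries, the 6 knockdown libraries alone, no trend, and fits without 1 library or 1 day.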

Additional observations from a re-analysis of the deposited data

Results flagged for a closer look

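Of the genes named for their large slopes, 4 had differences between the lincRNA-p21 and Hnrnpk arms of opposite sign on days 6 and 12. Genes with such signs outside that choice are not listed. Each day has 1 library per arm, and no gene passed the slope test (the lowest limma adjusted p was 0.241). Ush1c was at -2.17 on day 6, -0.74 on day 9 and 0.45 on day 12, a slope of 1.31 per 3 days on the log2(value + 10) scale. Itgb7, an integrin subunit of lymphocytes, was at -0.73, -0.33 and 1.12, a slope of 0.93. Car4 was at 0.06, -1.47 and -2.66, a slope of -1.36. Its day 6 values were 1.5 in the lincRNA-p21 arm and 1 in the Hnrnpk arm. Both are far below the added 10, so no sign can be read for Car4 on day 6. Sprr2a2 was at 0.29, -1.53 and -2.38, a slope of -1.34.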

How the results depend on the processing

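With any 1 library or any 1 day left out, genes called higher numbered 0 to 467 and genes called lower 0 to 492. All 409 called genes had 1 sign on every day, so these fits are no test of their direction. Both were 0 without day 9 of all arms (1098 genes had an unadjusted limma p under 0.05) and without day 12 (1654). Only the 6 knockdown libraries gave 350 genes lower and 296 higher. Adding 1 gave 403 calls, adding 50 gave 379 and median-centring gave 413, of which 391, 371 and 405 were among the 409.

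Counts of genes at least 2-fold apart within a day moved with the added value. With 50 added they were 47 higher and 145 lower on day 6, 24 higher and 61 lower on day 9, and 25 higher and 113 lower on day 12. With 1 added 121 were higher on day 9. The slope count stayed at 0 under the alternatives run. The cause of these moves was not tested. Low values, a scale shared by all libraries and the missing read depth limit small differences. The only replication is over days.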

Other observations

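Genes outside the lists that were called, chosen after their values were seen, are given here by what they are known to do. Differences are lincRNA-p21 minus Hnrnpk in log2(value + 10). Itga3, a laminin-binding integrin subunit, was at -0.99 (limma adjusted p = 0.0200) and Col17a1, a hemidesmosomal collagen, at -0.90 (limma adjusted p = 0.0474). Cubn, the partner of megalin in endocytosis, was at -1.05 (limma adjusted p = 0.0369). Trp73, a p53 family factor, had 9, 11 and 10 in the lincRNA-p21 arm, 65.5, 44 and 29 in the Hnrnpk arm, with 7.5, 3 and 2.5 in the luciferase arm (difference -1.44, limma adjusted p = 0.0386). Its Hnrnpk libraries alone stood clear of the added 10.

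Genes higher in the lincRNA-p21 arm included some known from synapses, a choice that shows nothing of such genes as a group (the neural list had 1 called higher and 3 lower). Nlgn1, neuroligin 1, had 200, 175.5 and 115 in the lincRNA-p21 arm, 84.5, 81.5 and 47.5 in the Hnrnpk arm, with 234.5, 157.5 and 119.5 in the luciferase arm (difference 1.10, limma adjusted p = 0.0131). The arms did not overlap. Cnr1, a cannabinoid receptor, was at 0.99 (limma adjusted p = 0.0298) and Apba1, an adaptor of presynaptic complexes, at 1.13 (limma adjusted p = 0.00983). Ednrb, an endothelin receptor, differed in that the lincRNA-p21 library was the highest on each day and the luciferase arm lay near the Hnrnpk arm. It had 272, 122.5 and 85 in the lincRNA-p21 arm, 119, 55 and 43 in the Hnrnpk arm, with 112, 61 and 47 in the luciferase arm. Ednrb was 2.0-fold higher than in the Hnrnpk arm (limma adjusted p = 0.0180). The arms overlapped over the days, and the lincRNA-p21 arm was not called against luciferase. The procollagen protease gene Adamts2 was at 1.16 (limma adjusted p = 0.0250).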
